A study of Rattus norvegicus with 15 samples.

Results

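The T and NK cell genes are 36 genes that code for the T cell receptor complex, its coreceptors and signal chain, and for proteins of cytotoxic and natural killer (NK) cells. They were chosen by symbol, and each of the 36 had 1 row among the 20375 genes listed for rat retina. Messenger RNA was sequenced from 15 whole retinas of wild-type Sprague-Dawley rats at postnatal week 12, 3 libraries in each of 5 groups, and the labels give day 31 after transplantation for every group. NT rats were healthy and received neither cells nor sodium iodate. Sham rats received sodium iodate (NaIO3) at 40 mg/kg, an oxidant that damages the pigment epithelium and then the photoreceptors, and an intravitreal injection of the saline vehicle. The MSC group received the same agent and human mesenchymal stem cells from Wharton's jelly, and the MSCEPO group the same kind of cells carrying a lentiviral construct for human erythropoietin and a green fluorescent protein, selected by sorting. In the study's methods the MSC and MSCEPO cells were injected before NaIO3 was given. The DPSC group received NaIO3 and the cells that the labels call DPSC, a group that the study's methods used here do not describe. The cells were human and the hosts rats, so the grafts were xenografts. Rats with xenografts were given dexamethasone at 2 mg/kg before surgery and oral cyclosporin at 10 mg/kg/day after it, and the labels do not say whether NT and sham rats were, so cells and drugs cannot be told apart in comparisons with these groups.

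T cells recognise antigen through a receptor that signals through the CD3 chains (Cd3e, Cd3d, Cd3g) and the zeta chain (Cd247). The kinase Lck, held at the coreceptors CD4 and CD8, phosphorylates these chains, ZAP-70 docks on them, and the adaptor LAT then assembles the signalling complex. Cytotoxic T cells and NK cells kill through perforin (Prf1) and granzymes, and NK cells carry receptors such as NKp46 (Ncr1). The healthy retina lies behind a blood-retinal barrier and is patrolled by microglia, so few lymphocytes are normally found in it. Cyclosporin acts on T cells by blocking calcineurin, which the receptor needs to switch on cytokine genes.

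The measure is the rlog value, a regularized log2 value computed by the authors and shrunken toward each gene's mean, so that differences are smaller than in counts, most of all for low genes. Values are not scaled to gene length, and levels were compared between libraries of 1 gene only. In whole tissue, fewer cells of a type and less RNA per cell cannot be told apart. The labels do not say whether the 3 libraries of a group came from separate rats, so p-values measure the spread between these libraries. Depth is not known from rlog values. Sag, the arrestin of rods, lay between 15.20 and 16.70 in all 15 libraries. The mean of 14 lens, cornea and pigment epithelium genes, in log2 units from NT, was less even. It stood at -0.66, 0.67 and -0.01 in NT, 1.13, -0.45 and -0.50 in MSC, and 2.02, -0.95 and 1.01 in DPSC. In sham it ran from 0.07 to 0.46 and in MSCEPO from -0.95 to 0.56. The part of such tissue in other differences was not tested.

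In healthy retina 7 members lay near the floor, with an NT mean under 3.32, the log2 of 10, as did 24.6% of the genes listed. They were the CD8 beta chain (Cd8b, 2.92 ± 0.04), the costimulatory receptor Cd27 (2.74 ± 0.01), Cd52 (1.30 ± 0.02), the SLAM adaptor Sh2d1a (2.82 ± 0.02), granzymes B (Gzmb, 2.89 ± 0.05) and K (Gzmk, 2.97 ± 0.05) and interferon gamma (Ifng, -0.58; SD, n = 3 each). These 7 also had a mean under 3.32 over the 15 libraries, so they were listed but not tested, and 29 members were tested. With a limit of log2(20), 22 members were near the floor (29.4% of genes listed), Cd3e, Cd3d and Cd2 among them, and with log2(5) only Cd52 and Ifng (20.7%). The rlog transformation leaves no single lowest value, so the spread over the 6 NT and sham libraries was also read, and 19 members varied by no more than 0.3 across them.

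Members by library are shown in the heat map. The mean of the 36 members lay 2.36, 1.18 and 0.64 above the NT mean in MSC libraries 1, 2 and 3. The same mean was 0.98, 0.61 and 0.38 above it in MSCEPO, 0.25, 0.78 and 0.11 in DPSC, and between 0.10 and 0.16 in sham. MSC 1 was the highest of the 15 libraries for 33 members, and the exceptions were Gzmb (MSC 2), Eomes (MSCEPO 3) and Ncr1 (NT 3). Within their groups, MSCEPO 1 was highest for 30 members and DPSC 2 for 32, so each cell-treated group held 1 library that led for most members. The number of members over 1 log2 unit above their NT mean was 29, 18 and 8 in MSC, 15, 7 and 4 in MSCEPO, 2, 12 and 0 in DPSC, and 1, 2 and 1 in sham. The group means of 28 members ran MSC, MSCEPO, DPSC and then sham or NT.

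**Figure D1:**
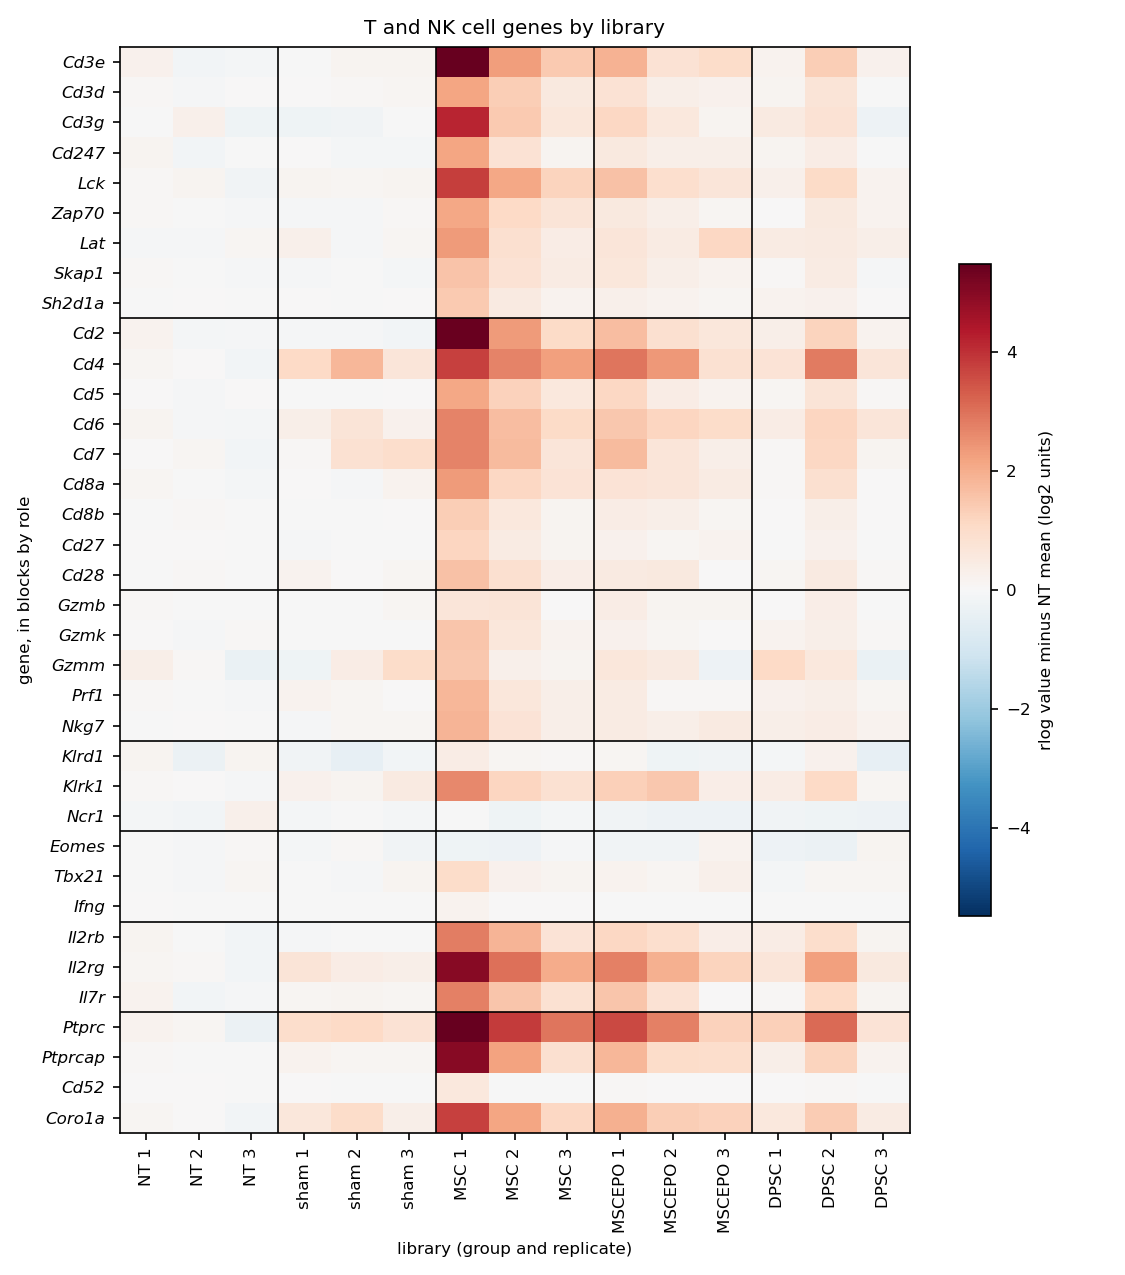
Colour gives the rlog value of each of the 36 members in each of the 15 libraries minus that member's NT mean (log2 units), with members in blocks by role and black lines between blocks and groups. MSC 1 is darkest for most members, MSCEPO 1 and DPSC 2 lead their groups, and the rows of Ncr1, Eomes and Ifng stay pale throughout.

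Markers of other immune cells, resident microglia included, also differed between the libraries. A list of 23 macrophage and microglia genes was already 0.81 to 1.30 above NT in sham, and stood at 3.10, 1.94 and 1.50 in MSC, 2.05, 1.67 and 1.26 in MSCEPO, and 0.90, 1.88 and 0.86 in DPSC. The 15 listed B and plasma cell genes did not leave the NT level in sham (-0.01 to 0.01) and stood at 3.22, 1.75 and 1.04 in MSC, 1.47, 1.10 and 0.09 in MSCEPO, and 0.02, 1.25 and 0.15 in DPSC. The 9 genes of the T cell receptor complex and signal chain ran from -0.02 to 0.04 in sham and stood at 2.79, 1.25 and 0.63 in MSC, 0.90, 0.46 and 0.43 in MSCEPO, and 0.23, 0.66 and 0.06 in DPSC. In MSCEPO 3 the B cell list (0.09) lay nearer NT than the T cell receptor list (0.43). In that library the B cell receptor component Cd79a read 4.19, within the NT range of 3.98 to 4.35, and Ms4a1 (CD20) 4.12. Cd3e there read 5.18 against a sham maximum of 4.34. Other T cell lists were also low in MSCEPO 3. The 19 listed partners of receptor signalling stood at 0.78, 0.51 and 0.14 in MSCEPO, and 16 T and NK transcription factors at 0.48, 0.34 and 0.01. The 15 listed neutrophil and mast cell genes averaged 0.02 to 0.09 above NT in sham and 0.25, 0.21 and 0.02 in MSC, and 4 of them were tested. Of the 4, the granulocyte receptor gene Csf3r was called higher in MSC against NT (1.05, adjusted p = 0.00279), and the mast cell protease Cpa3 was 1.43 above NT and 1.39 above sham without a call. The part of other cell types in the differences of Cd4, Ptprc and other genes they share was not tested.

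**Figure D2:**
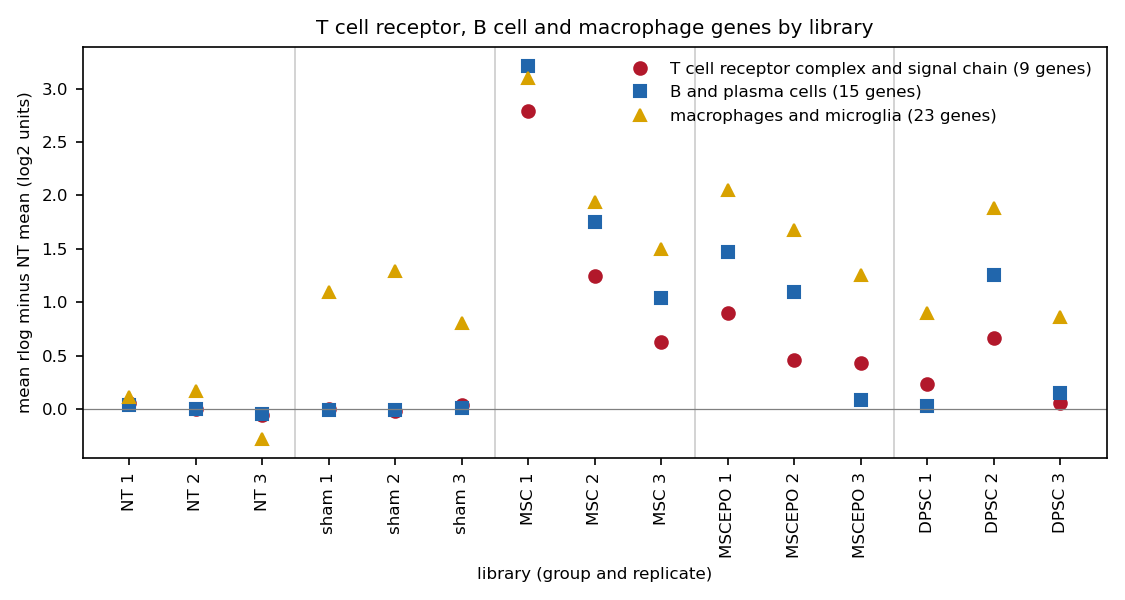
Each point is the mean rlog value of a gene list in 1 library minus its NT mean (log2 units), for the T cell receptor complex and signal chain (9 genes), B and plasma cells (15) and macrophages and microglia (23). In sham the macrophage points stand at 0.81 to 1.30 and those of the other lists between -0.02 and 0.04, and in MSCEPO 3 the B cell point is at 0.09 while the T cell receptor point is at 0.43.

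Against NT, the MSC group had 19 of the 36 members higher, at an adjusted p under 0.05 in limma and a log2 difference over 1. The same call was made for 5.71% of the 15424 genes tested, and no member was called lower. The 19 were 6 of the receptor complex and signal chain (Cd3e, Cd3d, Cd3g, Lck, Zap70 and Lat), 6 coreceptors and costimulatory molecules (Cd2, Cd4, Cd5, Cd6, Cd7 and Cd8a), the NK receptor gene Klrk1, the cytokine receptor chains Il2rb, Il2rg and Il7r, and the leukocyte genes Ptprc, Ptprcap and Coro1a. Ptprc, the CD45 phosphatase of all leukocytes, had the largest difference (4.06 ± 0.71, SE, adjusted p = 0.00314). Cd28, Skap1, Prf1 and Nkg7 passed the p threshold with differences between 0.92 and 0.98, under the fold limit. All 3 MSC libraries lay above all 3 NT libraries for 30 members, as they did for 19.7% of the genes listed, and the median difference of the 36 was 1.24. This count changed with the library left out: 10 members were called without MSC 1, 10 without NT 2, 11 without NT 3 and 24 without MSC 3. The mean of the 36 members had an SD of 0.06 between NT libraries and 0.88 between MSC libraries. The median difference was 0.76 without MSC 1. In a fit of the MSC and NT libraries alone 10 were called, among them Ptprc, Cd4, Cd6, Lck, Il2rg and Coro1a. Cd3e, Cd3d, Cd3g and Cd2 were not called in that fit (limma adjusted p = 0.0759, 0.0571, 0.143 and 0.0944). Over the 25 alternative settings Cd3g lost its call in 18 and Lat in 15.

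MSC against sham compared retinas given NaIO3 with and without transplanted cells, which cannot be told apart from the drugs given with them. No member passed in limma (0 of 36, with 0% of the genes tested called), and the smallest adjusted p was 0.134. At an unadjusted p under 0.05, 26 of the 29 tested members were higher, against 9.49% of all genes tested. The members' differences ran from -0.10 (Eomes) to 3.12 (Ptprc) with a median of 1.10, and 20 of the 36 exceeded 1, as did 2.75% of genes listed. All 3 MSC libraries lay above all 3 sham libraries for 30 members, and this held for 12% of the genes listed. The largest differences were those of Ptprc (3.12, 95% interval 1.58 to 4.66), the adhesion molecule Cd2 (3.01, 1.34 to 4.68), Cd3e (2.99, 1.36 to 4.61) and the common gamma chain Il2rg (2.87, 1.49 to 4.25). Without MSC 3, 21 members passed, and without MSC 1 the median fell to 0.64 with 0 called. The MSC libraries were more unequal than the sham libraries, and Cd3e had an SD of 2.12 in MSC and of 0.10 in sham.

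**Figure D3:**
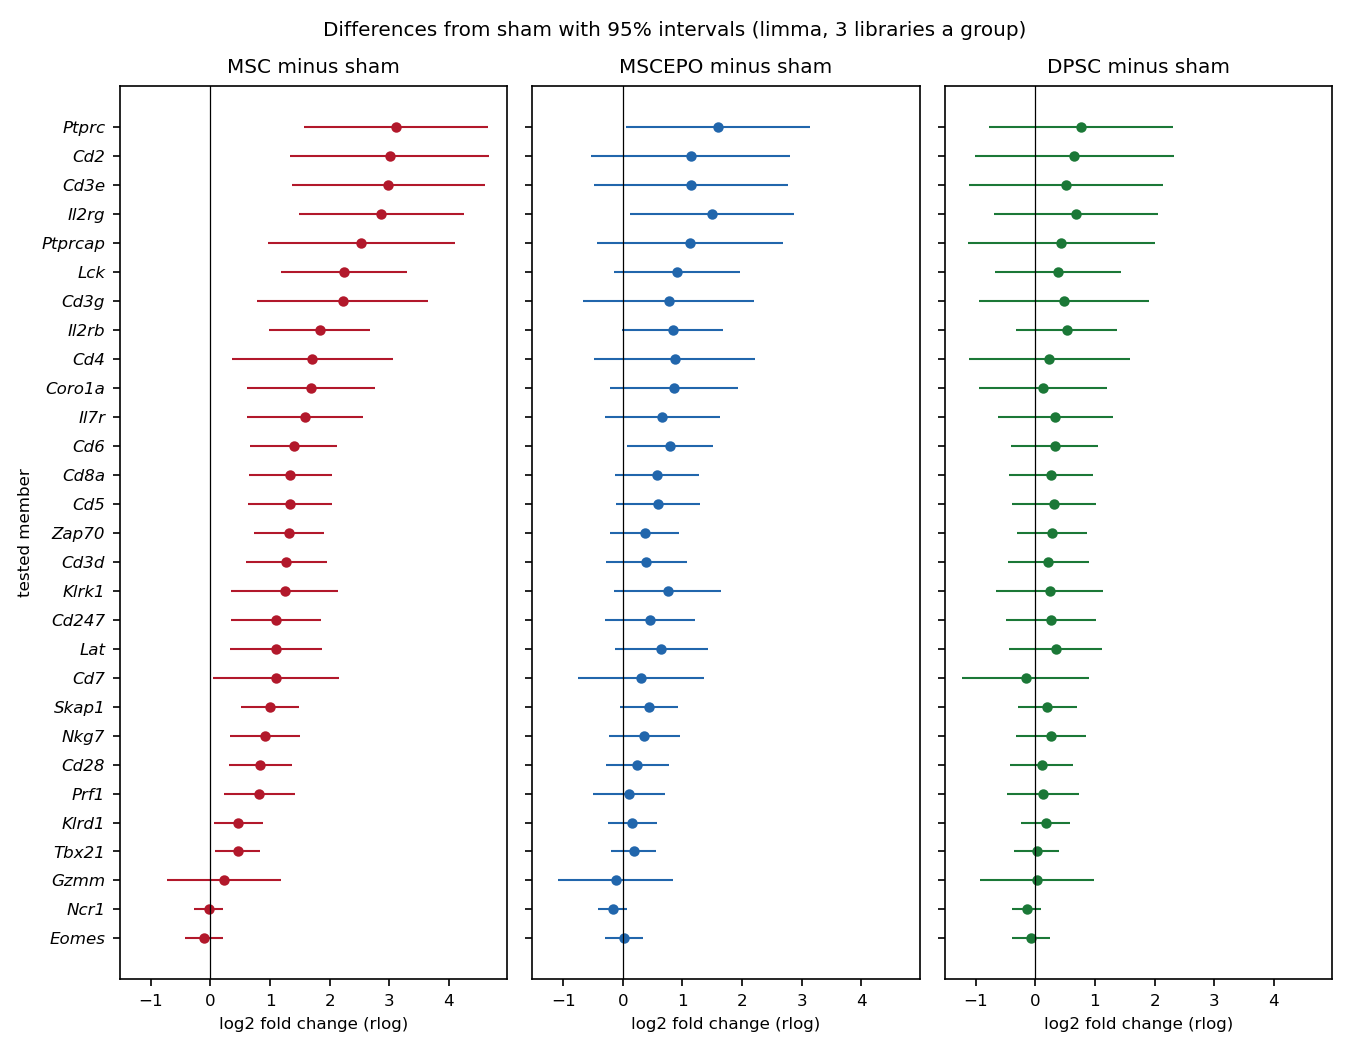
Points are log2 differences of rlog group means from sham for the 29 tested members, ordered by MSC minus sham, and lines are 95% intervals from limma (3 libraries a group). In MSC the intervals of 26 members lie above 0, in MSCEPO those of 3 and in DPSC those of 0.

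MSCEPO and DPSC were compared with the same sham and NT libraries, so these comparisons share their controls. Against NT, 2 members were higher in MSCEPO (2.33% of genes tested): Ptprc (2.55 ± 0.71, SE, adjusted p = 0.0361) and Cd6 (1.21 ± 0.33, adjusted p = 0.0348), a receptor that tunes T cell adhesion. The MSCEPO libraries lay wholly above NT for 25 members (14.3% of genes listed), with a median difference of 0.44. The count was 0 without NT 1, NT 2, NT 3, MSCEPO 1 or MSCEPO 2, 1 without sham 1, sham 3 or MSC 2, 4 without MSC 3 or DPSC 2, 5 without MSCEPO 3 and 9 without MSC 1. Against sham, 0 members were called in MSCEPO by limma (0% of genes tested), 3 were higher at an unadjusted p under 0.05 (Ptprc, Cd6 and Il2rg, against 3.19% of genes tested), 23 lay wholly above (8.43% of genes listed), and the median was 0.42. In DPSC against NT 0 members were called (0.525% of genes tested). At an unadjusted p under 0.05 Ptprc, Cd4 and Cd6 were higher, 3 of the 29 tested, as were 8.91% of genes tested. There 14 lay wholly above (13.5% of genes listed), and the median was 0.31, or 0.11 without DPSC 2. DPSC against sham gave 0 calls (0% of genes tested) and 0 members higher at an unadjusted p under 0.05 (0.985% of genes tested), 9 members wholly above (6.33% of genes listed) and a median of 0.23, or 0.04 without DPSC 2.

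Between the cell types transplanted, limma called 0 members in each comparison. MSC against MSCEPO (0% of genes tested called higher) had a median difference of 0.65, with 12 members higher at an unadjusted p under 0.05 (2.83% of genes tested) and all adjusted p at 0.754 or more. Only Zap70 and Ifng lay wholly above (2.26% of genes listed). The median was 0.25 without MSC 1, 1.01 without MSC 3, and 0.11 without both MSC 1 and MSCEPO 3. The interval of the Cd3e difference ran from 0.22 to 3.46. DPSC against MSC (0% called lower) had a median of -0.92, or -0.47 without MSC 1. Here 24 members were lower at an unadjusted p under 0.05 (5.78% of genes tested), and Cd3e, Lck, Zap70, Skap1, Tbx21 and Ifng lay wholly below (3.63% of genes listed). DPSC against MSCEPO (0% called lower) had a median of -0.22, 0 members lower at an unadjusted p under 0.05 (0.901% of genes tested) and 0 wholly below (1.96% of genes listed). That median was -0.36 without DPSC 2 and -0.09 without MSCEPO 1.

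NaIO3 with vehicle, compared with the healthy retina, gave values near those of NT for most members. No member was called in limma (0 of 36, with 0.266% of genes tested called higher), 0 were higher at an unadjusted p under 0.05 (6.29% of genes tested), and the median difference was 0.04. Sham lay wholly above NT for 7 members (13.9% of genes listed): Ptprc, Ptprcap, Cd4, Cd6, Klrk1, Il2rg and Coro1a. CD45, CD4, the common gamma chain and coronin 1A are found on rat macrophages or microglia as well as on T cells. Ptprcap, Cd6 and Klrk1 differed by 0.14, 0.42 and 0.29. Which cells these 7 differences came from was not tested. Cd4 had the only difference over 1 (1.18, 95% interval -0.17 to 2.54, adjusted p = 0.488). The interval for Cd3e was -1.55 to 1.70. It rests on a spread shared by all groups of the fit, and the SD of Cd3e was 0.20 in NT, 0.10 in sham and 2.12 in MSC. Cd3e itself read 4.06 to 4.44 in NT and 4.16 to 4.34 in sham.

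**Figure D4:**
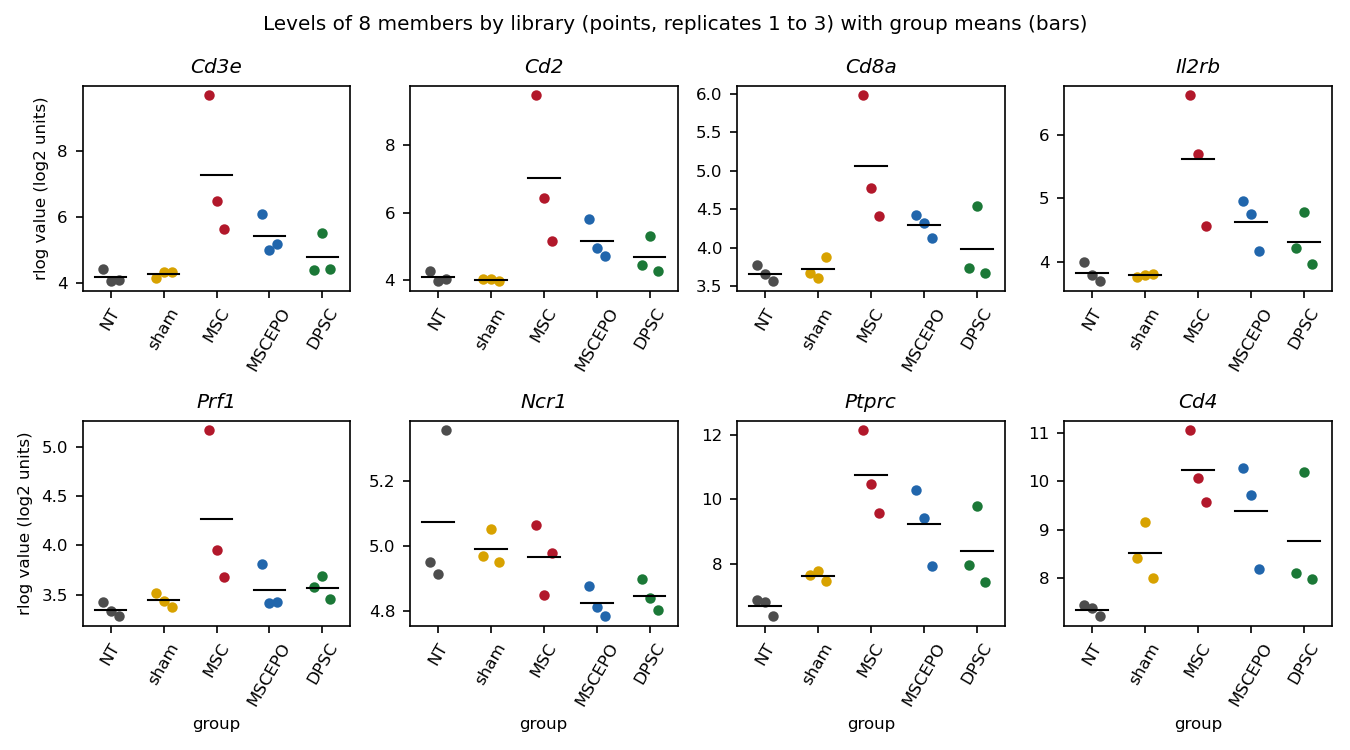
Points are rlog values (log2 units) of 8 members in the 3 libraries of each group, replicates 1 to 3 from left to right, and bars are group means, on a separate scale for each gene. Cd3e, Cd2, Cd8a and Il2rb overlap between NT and sham and are highest in MSC 1, Ptprc and Cd4 stand higher in sham than in NT, and Ncr1 is highest in NT 3.

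The CD3 chains are the parts of the receptor that carry its signal. Cd3e read 4.44, 4.06 and 4.11 in NT, 4.16, 4.33 and 4.34 in sham, 9.67, 6.48 and 5.65 in MSC, 6.10, 4.998 and 5.18 in MSCEPO, and 4.41, 5.53 and 4.44 in DPSC. Cd3g read 4.59, 4.87 and 4.37 in NT, 4.36, 4.41 and 4.61 in sham, 8.77, 6.05 and 5.22 in MSC, 5.76, 5.18 and 4.75 in MSCEPO, and 5.11, 5.40 and 4.32 in DPSC. Cd3d read 3.41, 3.30 and 3.36 in NT, 3.38, 3.40 and 3.47 in sham, 5.50, 4.70 and 3.87 in MSC, 4.17, 3.67 and 3.60 in MSCEPO, and 3.53, 4.05 and 3.33 in DPSC. MSC 1 stood above every other library for all 3 chains, and the NT and sham libraries overlapped. Its lead over MSC 2 was 3.18 for Cd3e, 2.72 for Cd3g and 0.80 for Cd3d. The lowest Cd3e value in DPSC (4.41) was above the highest in sham (4.34), but within the NT range. Cd247 read 5.28, 4.98 and 5.11 in NT, 5.13, 5.03 and 4.999 in sham, 7.27, 5.91 and 5.29 in MSC, 5.65, 5.45 and 5.45 in MSCEPO, and 5.28, 5.55 and 5.11 in DPSC. The zeta chain had a narrower range, with MSC 3 at 5.29 beside NT 1 at 5.28, and it was not called against NT (1.03, adjusted p = 0.0601).

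Kinases and adaptors that carry the signal followed the chains. Lck read 4.86, 4.95 and 4.62 in NT, 4.96, 4.94 and 4.95 in sham, 8.61, 6.93 and 6.03 in MSC, 6.40, 5.72 and 5.46 in MSCEPO, and 5.09, 5.88 and 5.02 in DPSC. Zap70 read 4.15, 4.09 and 4.05 in NT, 4.02, 4.02 and 4.14 in sham, 6.19, 5.16 and 4.78 in MSC, 4.65, 4.43 and 4.19 in MSCEPO, and 4.13, 4.62 and 4.27 in DPSC. Lat read 5.37, 5.33 and 5.54 in NT, 5.68, 5.34 and 5.51 in sham, 7.73, 6.29 and 5.80 in MSC, 6.06, 5.86 and 6.54 in MSCEPO, and 5.88, 5.92 and 5.75 in DPSC. Lck and Zap70 were above NT and sham in each MSC and MSCEPO library. Lat differed in that MSCEPO 3, at 6.54, was the highest library of its group and above MSC 2 and MSC 3. Skap1 read 3.46, 3.38 and 3.34 in NT, 3.33, 3.38 and 3.30 in sham, 4.96, 4.20 and 3.83 in MSC, 4.02, 3.70 and 3.60 in MSCEPO, and 3.47, 3.82 and 3.31 in DPSC. Sh2d1a read 2.81, 2.85 and 2.80 in NT, 2.82, 2.80 and 2.85 in sham, 4.24, 3.32 and 2.99 in MSC, 3.09, 2.999 and 2.94 in MSCEPO, and 3.003, 3.05 and 2.84 in DPSC. Skap1, an adaptor of T cell adhesion, and Sh2d1a spanned less than 2 log2 units over the 15 libraries, and their MSC libraries lay above those of sham and NT.

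Promoters of members that move together across libraries are shown for 4 genes, the CD3 delta chain, Cd2, Lat and perforin, as a view of what the receptor and killing genes hold at their starts. RefSeq windows of 300 bases, 250 before and 50 after the start, were matched by symbol for 27 of the 36 members on the GRCr8 build, which is not the Rnor_6.0 build of the files. Capitals mark the ETS core AGGAAG and the RUNX letters TGTGGT, on either strand, the sites of factor families that act in lymphocytes.
Cd3d (chr8:54185269-54185568, plus strand): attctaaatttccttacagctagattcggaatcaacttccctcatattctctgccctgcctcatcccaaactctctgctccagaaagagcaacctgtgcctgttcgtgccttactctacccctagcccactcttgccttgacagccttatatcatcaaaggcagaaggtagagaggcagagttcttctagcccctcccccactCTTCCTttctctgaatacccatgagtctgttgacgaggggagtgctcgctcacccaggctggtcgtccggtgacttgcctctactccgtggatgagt
Cd2 (chr2:191412610-191412909, minus strand): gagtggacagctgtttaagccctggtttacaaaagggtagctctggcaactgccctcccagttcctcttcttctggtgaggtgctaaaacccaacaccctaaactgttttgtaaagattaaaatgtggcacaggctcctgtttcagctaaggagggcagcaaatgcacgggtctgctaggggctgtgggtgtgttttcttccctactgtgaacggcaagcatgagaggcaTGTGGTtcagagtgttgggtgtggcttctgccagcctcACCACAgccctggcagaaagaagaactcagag
Lat (chr1:190372087-190372386, minus strand): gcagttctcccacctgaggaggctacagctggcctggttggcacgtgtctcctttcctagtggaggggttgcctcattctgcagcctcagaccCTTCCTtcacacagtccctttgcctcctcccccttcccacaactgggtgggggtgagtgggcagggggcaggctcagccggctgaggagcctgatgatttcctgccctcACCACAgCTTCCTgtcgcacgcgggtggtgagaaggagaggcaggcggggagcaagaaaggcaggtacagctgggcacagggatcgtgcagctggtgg
Prf1 (chr20:29788790-29789089, plus strand): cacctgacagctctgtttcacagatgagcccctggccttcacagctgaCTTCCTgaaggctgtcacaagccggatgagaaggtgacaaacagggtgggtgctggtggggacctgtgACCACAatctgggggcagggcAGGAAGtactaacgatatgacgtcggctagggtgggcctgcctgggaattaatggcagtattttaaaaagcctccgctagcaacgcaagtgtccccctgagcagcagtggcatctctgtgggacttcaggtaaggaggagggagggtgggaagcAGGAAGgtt
Cd3d held 1 ETS core and no RUNX match, Cd2 held 2 RUNX matches, Lat held 2 ETS cores and 1 RUNX match, and Prf1 held 3 and 1. Over the 27 windows the ETS core was in 13 (48.1%), as in 34.5% of the 33469 windows of all genes, and TGTGGT was in 13 (48.1%), as in 17.3%. The TCF/LEF letters CTTTGA were in 9 (33.3% against 16.1%) and the T-box letters GGTGTGA in 3 (11.1% against 3.83%). Both strands were searched, and matches of different motifs may share bases. The near-floor genes Gzmb and Gzmk held 3 and 1 RUNX matches. Cd8a, Il2rg and Coro1a, all higher in MSC than in NT, held none of the 4 motifs, and neither did Tbx21 and Ifng. A match is a run of letters and not a measured site.

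Adhesion molecules and coreceptors were also highest in MSC 1. Cd2 read 4.28, 3.99 and 4.04 in NT, 4.05, 4.05 and 3.96 in sham, 9.49, 6.44 and 5.16 in MSC, 5.80, 4.96 and 4.71 in MSCEPO, and 4.44, 5.31 and 4.28 in DPSC. Cd8a read 3.78, 3.66 and 3.56 in NT, 3.67, 3.61 and 3.88 in sham, 5.98, 4.78 and 4.41 in MSC, 4.43, 4.33 and 4.12 in MSCEPO, and 3.74, 4.54 and 3.68 in DPSC. Cd8b read 2.90, 2.97 and 2.89 in NT, 2.91, 2.89 and 2.95 in sham, 4.25, 3.47 and 3.07 in MSC, 3.33, 3.23 and 3.01 in MSCEPO, and 2.94, 3.25 and 2.93 in DPSC. CD2 binds its ligand on antigen-presenting cells, and CD8 alpha and beta form the coreceptor of cytotoxic T cells. All 3 MSC libraries of these genes were above all NT and sham libraries, and DPSC 2 was the highest of its group for each. Cd4 read 7.44, 7.38 and 7.21 in NT, 8.42, 9.15 and 8.01 in sham, 11.06, 10.06 and 9.58 in MSC, 10.29, 9.72 and 8.18 in MSCEPO, and 8.10, 10.20 and 7.98 in DPSC. CD4, the coreceptor of helper T cells, is in the rat also carried by macrophages and microglia, and sham was already wholly above NT. MSCEPO 3 and DPSC 1 lay within the sham range of Cd4 and DPSC 3 just below it. Cd68, a lysosomal protein of macrophages, read 5.63 to 6.06 in NT, 6.69 to 7.59 in sham and 9.95 in MSC 1.

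Cd5 read 3.81, 3.71 and 3.82 in NT, 3.76, 3.75 and 3.80 in sham, 5.89, 5.06 and 4.37 in MSC, 4.93, 4.17 and 3.98 in MSCEPO, and 3.91, 4.50 and 3.83 in DPSC. Cd6 read 5.24, 5.01 and 4.98 in NT, 5.40, 5.80 and 5.29 in sham, 7.78, 6.79 and 6.11 in MSC, 6.54, 6.24 and 6.07 in MSCEPO, and 5.48, 6.24 and 5.74 in DPSC. Cd7 read 4.41, 4.50 and 4.25 in NT, 4.43, 5.21 and 5.36 in sham, 7.11, 6.13 and 5.06 in MSC, 6.13, 5.07 and 4.70 in MSCEPO, and 4.45, 5.53 and 4.53 in DPSC. CD5 and CD6 are inhibitory scavenger receptors of T cells, and CD7 is carried by T and NK cells. Cd5 kept within 0.11 across NT and sham, whereas Cd7 read 5.21 and 5.36 in sham 2 and 3, above MSC 3. Cd28 read 3.32, 3.37 and 3.29 in NT, 3.54, 3.37 and 3.41 in sham, 4.92, 4.21 and 3.71 in MSC, 3.82, 3.88 and 3.34 in MSCEPO, and 3.42, 3.84 and 3.38 in DPSC. Cd27 read 2.75, 2.74 and 2.73 in NT, 2.69, 2.73 and 2.72 in sham, 3.91, 3.20 and 2.89 in MSC, 2.98, 2.83 and 2.95 in MSCEPO, and 2.70, 2.99 and 2.70 in DPSC. CD28 and CD27 give the second signal to T cells. Both were wholly higher in MSC than in sham, and Cd28 was 0.84 higher (adjusted p = 0.153).

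Of the killing proteins, none was called in any comparison. Prf1 read 3.42, 3.33 and 3.28 in NT, 3.52, 3.44 and 3.38 in sham, 5.17, 3.95 and 3.68 in MSC, 3.81, 3.41 and 3.43 in MSCEPO, and 3.58, 3.68 and 3.46 in DPSC. Nkg7 read 3.42, 3.44 and 3.42 in NT, 3.38, 3.52 and 3.54 in sham, 5.30, 4.18 and 3.73 in MSC, 3.89, 3.73 and 3.91 in MSCEPO, and 3.77, 3.82 and 3.63 in DPSC. Gzmk read 2.98, 2.91 and 3.01 in NT, 2.94, 2.95 and 2.95 in sham, 4.50, 3.57 and 3.17 in MSC, 3.22, 3.06 and 3.0004 in MSCEPO, and 3.17, 3.27 and 3.03 in DPSC. Perforin makes the pore, and NKG7 takes part in granule release. The MSC libraries lay above sham and NT for these 3, with MSC 1 above the next library by 1.21, 1.12 and 0.93, and the differences from sham were 0.82 (Prf1, adjusted p = 0.2), 0.92 (Nkg7, adjusted p = 0.158) and 0.80 (Gzmk, not tested). Gzmb read 2.95, 2.87 and 2.87 in NT, 2.87, 2.87 and 3.001 in sham, 3.56, 3.59 and 2.92 in MSC, 3.32, 3.04 and 3.06 in MSCEPO, and 2.93, 3.27 and 2.87 in DPSC. Gzmm read 5.73, 5.45 and 5.04 in NT, 5.18, 5.80 and 6.43 in sham, 6.86, 5.68 and 5.56 in MSC, 6.02, 5.89 and 5.14 in MSCEPO, and 6.51, 5.97 and 5.03 in DPSC. Granzyme B stayed at or under 3.59, and granzyme M spread as widely within sham (5.18 to 6.43) as between groups. Rat granzyme genes lie in families of similar sequence, and the authors' counting could have split reads among them.

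Of the 3 NK receptor genes 1 was called in MSC against NT. Klrk1 read 4.09, 4.04 and 3.96 in NT, 4.24, 4.19 and 4.53 in sham, 6.68, 5.19 and 4.84 in MSC, 5.34, 5.49 and 4.40 in MSCEPO, and 4.42, 5.14 and 4.15 in DPSC. Klrd1 read 7.82, 7.36 and 7.83 in NT, 7.46, 7.21 and 7.52 in sham, 8.09, 7.78 and 7.72 in MSC, 7.76, 7.45 and 7.46 in MSCEPO, and 7.57, 7.91 and 7.23 in DPSC. Ncr1 read 4.95, 4.91 and 5.36 in NT, 4.97, 5.05 and 4.95 in sham, 5.07, 4.85 and 4.98 in MSC, 4.88, 4.81 and 4.79 in MSCEPO, and 4.90, 4.84 and 4.80 in DPSC. Klrk1 codes for NKG2D, which cytotoxic T cells also carry, Klrd1 for CD94, and Ncr1 for NKp46, the receptor most restricted to NK cells. Klrk1 rose in MSC against NT (1.54 ± 0.41, SE, adjusted p = 0.0233), and Klrd1 differed by 0.19 (adjusted p = 0.544) from an NT mean of 7.67. Against sham, Klrk1 was 1.25 higher in MSC (limma adjusted p = 0.194). Klrd1 was 0.47 higher (95% interval 0.05 to 0.88, adjusted p = 0.306). For both, all 3 MSC libraries lay above all 3 sham libraries, as for 12% of the genes listed, and neither was called. For Ncr1, MSC against sham was -0.03 (95% interval -0.27 to 0.22), and MSCEPO and DPSC lay wholly below both NT and sham within a total range of 0.57. Of the members called in any comparison, none codes for a receptor restricted to NK cells, and the NK cell content of these retinas was not tested.

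Neither of the 2 transcription factors was called in any comparison. Eomes, a T-box factor of memory T and NK cells that retinal ganglion cells also express, lay between 5.99 and 6.52 in all libraries, and all 3 MSC libraries were below NT. Tbx21 (T-bet), the factor of type 1 and cytotoxic lymphocytes, was 4.01 to 4.19 in NT, 4.01 to 4.23 in sham and 5.08, 4.33 and 4.25 in MSC, so that MSC lay wholly above both, 0.46 above sham (adjusted p = 0.258). Ifng, its target cytokine, was at -0.58 in the NT, sham, MSCEPO and DPSC libraries and at -0.39, -0.56 and -0.56 in MSC.

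Cytokine receptor chains were among the members with the widest differences. Il2rb read 3.99, 3.79 and 3.69 in NT, 3.76, 3.80 and 3.82 in sham, 6.62, 5.69 and 4.57 in MSC, 4.95, 4.76 and 4.17 in MSCEPO, and 4.22, 4.78 and 3.96 in DPSC. Il2rg read 4.94, 4.91 and 4.69 in NT, 5.55, 5.24 and 5.16 in sham, 9.82, 7.87 and 6.87 in MSC, 7.61, 6.79 and 6.04 in MSCEPO, and 5.53, 7.07 and 5.39 in DPSC. Il7r read 4.40, 4.03 and 4.14 in NT, 4.30, 4.32 and 4.28 in sham, 6.94, 5.68 and 5.03 in MSC, 5.71, 4.96 and 4.22 in MSCEPO, and 4.26, 5.29 and 4.35 in DPSC. Il2rb pairs with the gamma chain in the receptors for interleukins 2 and 15, and Il7r in the receptor for interleukin 7. The 3 MSC libraries were above sham and NT for each, all 3 rose in MSC against NT (1.80, 3.34 and 1.70), and Il7r in MSCEPO 3, DPSC 1 and DPSC 3 lay within the NT range.

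Leukocyte genes that are not limited to lymphocytes closed the list. Ptprc read 6.88, 6.80 and 6.37 in NT, 7.64, 7.77 and 7.47 in sham, 12.15, 10.49 and 9.59 in MSC, 10.31, 9.44 and 7.94 in MSCEPO, and 7.97, 9.80 and 7.42 in DPSC. Ptprcap read 4.15, 4.05 and 4.04 in NT, 4.26, 4.19 and 4.20 in sham, 9.04, 6.26 and 4.95 in MSC, 5.91, 5.08 and 5.04 in MSCEPO, and 4.39, 5.30 and 4.27 in DPSC. Coro1a read 7.86, 7.79 and 7.63 in NT, 8.40, 8.75 and 8.08 in sham, 11.51, 9.92 and 8.88 in MSC, 9.71, 9.10 and 8.997 in MSCEPO, and 8.31, 9.14 and 8.19 in DPSC. For Ptprc the NT, sham and MSC libraries lay in that order without overlap, and DPSC 3, at 7.42, was the only library of a transplanted group not above the sham range. Ptprcap, which binds CD45 in lymphocytes, was almost flat between NT and sham and read 9.04 in MSC 1. Cd52 read 1.32, 1.31 and 1.29 in NT, 1.31, 1.29 and 1.28 in sham, 1.90, 1.28 and 1.28 in MSC, 1.37, 1.30 and 1.32 in MSCEPO, and 1.35, 1.35 and 1.29 in DPSC. CD52, a small surface glycoprotein of lymphocytes, read 1.90 in MSC 1 and between 1.28 and 1.37 in all the others.

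Genes of the same pathways that are not members were counted by their calls in MSC against NT, where 5.71% of all genes tested were called higher and 0.985% lower. Of the other partners of receptor signalling 8 of 17 tested were higher, of the other granule and NK genes 9 of 15, of the other transcription factors 5 of 15, of the gamma chain cytokine genes 4 of 14, of interferon gamma response genes 14 of 19 and of homing genes 10 of 13. In MSC against sham 0 were called in each of these lists, with medians of 0.65, 0.40, 0.57, 0.38, 1.20 and 1.17 in the same order. In sham against NT, 2 of the 14 gamma chain cytokine genes were already called higher, and 0 in each of the other lists just counted (0.266% of genes tested). The adhesion receptor Cd226 was 1.38 above NT, the chemokine Ccl5 1.52, the lymphoid factor Ikzf3 1.42, the interleukin 2 receptor alpha chain Il2ra 1.85, the chemokine Cxcl10 2.60 and the integrin Itgal, part of LFA-1, 3.31, each called against NT. Cxcl10, an interferon gamma target that draws T cells, read 8.48, 8.06 and 6.70 in MSC while Ifng read -0.39, -0.56 and -0.56 in the same libraries. Genes of macrophages (18 of 23) and B cells (10 of 13) were higher in MSC against NT, and rods and cones lower (12 of 15). The granule and NK list held 27 genes, 15 of them tested, with a median of 0.39 in that comparison. The lists share some genes, Tyrobp, Cx3cr1 and Socs1 among them, and Tyrobp is in both the granule and NK list and the macrophage list. The part of other cell types in these counts was not tested.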

How the data were processed

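Messenger RNA of 15 rat retinas was sequenced, 3 libraries in each of the NT, sham, MSC, MSCEPO and DPSC groups, as the labels name them. Salmon 1.1.0 was run by the authors on rat transcripts of the Rnor_6.0 build. They summed the estimates over each gene and transformed them with DESeq2, whose version the submitters' processing notes give as 3.2. The deposited log2 values are the authors' rlog values, corrected for library size, and depth is unknown from them. A table of the whole series with 15 columns that match no sample label was not used.

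The fit held group means of all 15 libraries in limma 3.58.1 (R 4.3.3), with variances moderated on a trend with the mean. It covered 15424 genes, those whose rlog values averaged 3.32 or more, with Benjamini-Hochberg adjustment over these genes in each of 10 comparisons. A called gene had an adjusted p under 0.05 and a log2 difference over 1, the thresholds of the study. The fit was tested on simulated data with independent genes and the same spread in every group. That test does not cover the unequal spread seen between the groups here. The members and the 15 other gene lists (261 genes, 19 of them with no row) were chosen with earlier results of these data known, so medians of lists carry no test. Every member is named, and of the other lists a few of the genes with the smallest p in MSC against sham and fixed markers. The alternatives were no filter, a minimum in every library, a fit of 2 groups, no DPSC group, a replicate block, median centring, quantile normalization, array weights, adjusted p alone, other floor limits and each library left out. Leaving out MSC 1 and MSCEPO 3 together was chosen after seeing the data. Promoter windows came from RefSeq on GRCr8, a different build, and were used for their letters only.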

Additional observations from a re-analysis of the deposited data

How the results depend on the processing

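With 19 members called in MSC against NT, 10 were called in the fit of 2 groups, 12 without both MSC 1 and MSCEPO 3, and 10 to 24 with 1 library left out. The 2 called in MSCEPO against NT became 5 in the fit of 2 groups, 1 with quantile normalization, 7 with array weights, 12 without both libraries, and 0 to 9 with 1 left out. Of 30 same-number pairs of libraries, 12 correlated over 0.1 (range -0.441 to 0.653). Pairs of different numbers were not compared, so whether the replicate numbers pair libraries is not known. With the replicate block MSCEPO against NT gave 5 calls and MSC against NT 20. The 0 calls in MSC against sham ranged from 0 to 21 with 1 library left out. Array weights, whose estimate stopped before it converged, gave 1 call in sham against NT, 4 in MSCEPO against sham, 1 in DPSC against NT and 4 lower in DPSC against MSCEPO. The fit of 2 groups also gave 1 in sham against NT, and leaving out both libraries 1 in DPSC against NT. With 1 library left out, the median difference ran from 0.64 to 1.57 in MSC against sham, 0.76 to 1.59 in MSC against NT and -1.31 to -0.47 in DPSC against MSC. Without both libraries these medians were 0.64, 0.76 and -0.47, and that of MSC against MSCEPO was 0.11. Near the floor in NT were 2 members at log2(5) and 22 at log2(20). In MSC against sham, 3 members that were not called changed sign: Ncr1 (0.021 with array weights, -0.076 to 0.032 with 1 library left out), Eomes (0.0032 with array weights) and Gzmm (-0.18 without both libraries, -0.18 to 0.54 with 1 left out). The cause of these changes was not tested. With 3 libraries a group and rlog values without depth, small differences of low genes cannot be judged.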
